A study of Mus musculus with 6 samples.

Results

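A set of 10 genes that mark lipid-laden, or foamy, macrophages were followed through 6 RNA-seq libraries of mouse KP cells: Gpnmb, Mmp12, Lpl, Cd36, Apoe, Atp6v0d2, Trem2, Fabp4, Ctsk and Pparg. They were listed by name for their parts in lipid uptake and in lysosomal or matrix breakdown, with earlier results of these libraries known, and were matched by mouse symbol to 10 of the 48526 gene identifiers counted. The members were chosen by their counts in this same contrast of doxycycline with untreated libraries, as seen in earlier results, so the values of the 10 genes are given as a description, with no test.

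The labels name the cells KP and say no more about their origin. The cells carried a doxycycline-inducible short hairpin vector against Npm1, a nucleolar chaperone, and were selected with puromycin into 3 stable lines, each with its own hairpin (N3, N4 and N5, called lines 3, 4 and 5 here). Each line gave 1 library with 100 ng/ml doxycycline, in which the hairpin is switched on, and 1 library without it. The 3 doxycycline libraries formed the knockdown group and the 3 untreated libraries its control. All 6 libraries carried a hairpin against Npm1 and none was given doxycycline without such a hairpin, so an effect of the drug and an effect of the knockdown cannot be told apart. Nothing shows that a line was grown more than once in either condition, or whether it is a clone, and no date or batch is stated for any of the libraries. P-values then measure the spread between 3 lines with different hairpins.

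Macrophages that take up more lipid than they can export store it as droplets and are called foam cells. Scavenger receptors bring lipoprotein in, lipases and lysosomal enzymes break it down, carrier proteins and apolipoproteins move the lipid on, and nuclear receptors that sense fatty acids and sterols turn the machinery up. Gpnmb, a membrane glycoprotein of endosomes and lysosomes, Trem2, a lipid-sensing receptor, and Mmp12, a secreted elastase, are widely used to mark such cells in lung, plaque and fat tissue, and Gpnmb, Atp6v0d2 and Ctsk are shared with osteoclasts.

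The libraries held between 24391198 and 27341036 counts in genes. After a filter on low counts 14531 genes were tested with edgeR's quasi-likelihood test and Benjamini-Hochberg adjustment, and levels are given as CPM, the count scaled by TMM and by library size. A count of 3, used as the floor, corresponds to 0.0991 to 0.137 CPM. Npm1, the targeted gene, stood at 67.8, 244.7 and 399.7 CPM in lines 3, 4 and 5 with doxycycline, against 2002, 1851 and 1924 CPM untreated. Its level fell to 3.39% in line 3, 13.2% in line 4 and 20.8% in line 5 of the untreated level of the same line. In the edgeR fit its log2 fold change was -3.02 (SE 0.49, adjusted p = 0.011).

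Summed over the 10 genes, the level was 197.3, 290.9 and 136.8 CPM in lines 3, 4 and 5 with doxycycline, against 82.4, 73.8 and 75.6 CPM untreated. Pparg, which ran the other way, made up most of the untreated sum. Without it the sums were 142.6, 245.1 and 89.5 CPM with doxycycline and 8.24, 7.37 and 8.87 CPM untreated. In 9 of the 10 genes every doxycycline library was above every untreated one, and in Pparg every doxycycline library was below. Across all genes tested 11.3% had groups that did not overlap with doxycycline higher, and 11.2% with doxycycline lower. Of the 10 genes 9 passed the filter on low counts, with Ctsk left out, and 7 of those 9 were called higher with doxycycline and 0 lower, where 2.28% of all genes tested were called in either direction, 0.963% higher and 1.32% lower. Unadjusted, 1 of the 9, Pparg, was lower at a p under 0.05, and DESeq2 called it lower too. These counts follow from how the genes were chosen, and nothing is read from them. These are bulk libraries, in which more cells of a type and more RNA of a gene per cell cannot be told apart.

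**Figure D1:**
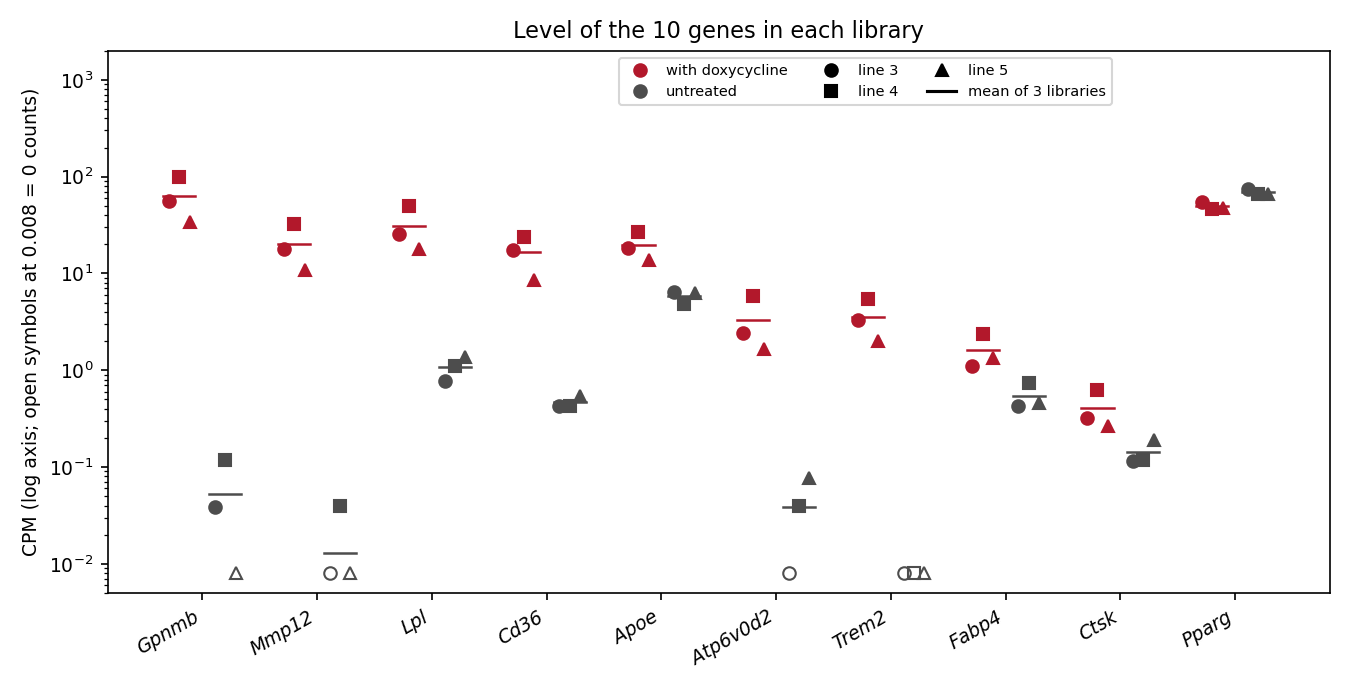
CPM (log axis) of the 10 genes in the 3 doxycycline libraries (red, left of each pair) and the 3 untreated libraries (grey), with a symbol for each line and a bar at the mean. Open symbols mark libraries with 0 counts. Gpnmb sits between 33.7 and 98.2 CPM with doxycycline and at or below 0.118 CPM untreated, and Pparg is the gene whose doxycycline libraries lie below the untreated ones.

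Upstream sequences of Gpnmb, Mmp12 and Trem2 are shown because they were at or under the floor of 3 counts in every untreated library, as was Atp6v0d2. RefSeq's promoter table for GRCm38.p6 had an entry for 7 of the 10 genes, 12 entries in all, and Lpl, Atp6v0d2 and Fabp4 had none. Each window is the 250 bases that end just before an annotated start. Motifs of 4 kinds were searched on both strands. CACGTG, the E-box of MiT and TFE lysosomal factors, occurs in 6.02% of the 32851 promoters of the same length. CATGTG, the M-box core, occurs in 12.3%. AGGAAGT, the PU.1 box of myeloid genes, occurs in 7.69%, and TGANTCA, the AP-1 site, in 6.75%. Capitals mark every match in the windows below. Gpnmb is read from chr6:49036268-49036517, plus strand. Mmp12 is its entry at chr9:7347124-7347373, plus strand, which lies inside the gene, annotated from 7344381. The Mmp12 entry at the annotated start of the gene is described below and not printed. Trem2 is chr17:48346151-48346400, plus strand.
Gpnmb: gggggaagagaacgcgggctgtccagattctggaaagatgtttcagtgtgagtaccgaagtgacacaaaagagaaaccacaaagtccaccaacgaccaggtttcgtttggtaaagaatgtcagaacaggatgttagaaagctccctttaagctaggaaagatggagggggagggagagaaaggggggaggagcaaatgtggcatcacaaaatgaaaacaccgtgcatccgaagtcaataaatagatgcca
Mmp12: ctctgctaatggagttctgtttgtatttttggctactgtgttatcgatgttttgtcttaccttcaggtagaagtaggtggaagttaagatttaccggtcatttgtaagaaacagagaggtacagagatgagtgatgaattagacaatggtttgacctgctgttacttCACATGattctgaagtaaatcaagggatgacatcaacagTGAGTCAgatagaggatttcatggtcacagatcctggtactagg
Trem2: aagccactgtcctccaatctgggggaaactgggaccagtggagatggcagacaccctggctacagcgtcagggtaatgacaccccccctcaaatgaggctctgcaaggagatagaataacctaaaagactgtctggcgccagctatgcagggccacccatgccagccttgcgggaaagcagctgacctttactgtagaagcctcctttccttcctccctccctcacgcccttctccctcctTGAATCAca

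The Gpnmb window held none of the 4 motifs. The Mmp12 window held CACATG, the M-box core on the minus strand, from 83 bases before the start, and TGAGTCA, an AP-1 site, from 44 bases before it. Trem2 had the AP-1 match TGAATCA from 9 bases before its start. The other Mmp12 entry, at chr9:7344147-7344396, held ACTTCCT, the PU.1 box on the minus strand, 88 bases before its start. No motif was found in the windows of Cd36, Apoe, Ctsk or Pparg. A match says that these letters are present, and nothing here measured binding.

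Gpnmb (ENSMUSG00000029816, chromosome 6, 49036546 to 49070929, plus strand, mm10) had 1222, 2974 and 879 counts in lines 3, 4 and 5 with doxycycline, against 1, 3 and 0 counts untreated. These were 55.9, 98.2 and 33.7 CPM with doxycycline and 0.0385, 0.118 and 0 CPM untreated. The gene was thus read well above the floor in every doxycycline library and lay at or below the floor in every untreated one. The group means were 62.6 ± 32.8 CPM with doxycycline and 0.052 ± 0.0599 CPM untreated (SD, n = 3 each). The edgeR log2 fold change was 10.12 (SE 0.63), and the ratio of the groups was 1257, with an exact 95% counting interval of 490.8 to 4616. With so few untreated counts the log2 fold change was 11.35 without the untreated library of line 4 and 10.85 without both libraries of line 4. That interval, like the others here, covers counting error and no spread between lines.

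Trem2 (ENSMUSG00000023992, chromosome 17, 48346401 to 48354147, plus strand), which signals through the adaptor Tyrobp, had 73, 163 and 52 counts with doxycycline in lines 3, 4 and 5 and 0 counts in each untreated line. The doxycycline libraries stood at 3.34, 5.38 and 1.99 CPM. Against a floor of 3 counts over the untreated group the level was at least 95.1-fold higher with doxycycline, from 288 counts over the group.

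Cd36 (ENSMUSG00000002944, chromosome 5, 17781690 to 17888801, minus strand), a scavenger receptor for oxidised lipoprotein and long-chain fatty acids, had 383, 728 and 221 counts with doxycycline, against 11, 11 and 14 untreated. Its levels were 17.5, 24.1 and 8.46 CPM with doxycycline and 0.424, 0.431 and 0.538 CPM untreated. Cd36 was low but present in all 3 untreated lines, above the floor of 3 counts. Its mean was 16.7 ± 7.83 CPM with doxycycline and 0.464 ± 0.0637 CPM untreated, and its log2 fold change was 5.15 (SE 0.42), a ratio of 36.7 (26.4 to 52.6).

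Lpl (ENSMUSG00000015568, chromosome 8, 68880491 to 68907448, plus strand), the lipase that frees fatty acids from lipoprotein triglyceride, had 562, 1500 and 462 counts with doxycycline, against 20, 28 and 36 untreated. In CPM this was 25.7, 49.6 and 17.7 with doxycycline and 0.77, 1.097 and 1.38 untreated. The lowest doxycycline library was many times above the highest untreated one. The means were 31.0 ± 16.6 CPM with doxycycline and 1.08 ± 0.306 CPM untreated, with a log2 fold change of 4.83 (SE 0.41) and a ratio of 29.8 (24.0 to 37.5).

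Apoe (ENSMUSG00000002985, chromosome 7, 19696109 to 19699188, minus strand), the apolipoprotein that carries cholesterol out of macrophages, had 400, 813 and 356 counts with doxycycline, against 168, 122 and 162 untreated. The levels were 18.3, 26.9 and 13.6 CPM with doxycycline and 6.47, 4.78 and 6.22 CPM untreated. Apoe was the most abundant of the 9 higher genes in the untreated lines, and its log2 fold change was 1.75 (SE 0.25), a ratio of 3.44 (3.10 to 3.83). Its edgeR call ended without the untreated library of line 3, and without both libraries of line 4. Fabp4 (ENSMUSG00000062515, chromosome 3, 10204088 to 10208576, minus strand), a fatty acid carrier of adipocytes and macrophages, had 24, 72 and 35 counts with doxycycline, against 11, 19 and 12 untreated. The levels were 1.099, 2.38 and 1.34 CPM with doxycycline and 0.424, 0.745 and 0.461 CPM untreated. The groups did not overlap, but the lowest doxycycline library and the highest untreated library of Fabp4 were close. Its log2 fold change was 1.57 (SE 0.41).

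Mmp12 (ENSMUSG00000049723, chromosome 9, 7344381 to 7369499, plus strand) had 390, 973 and 284 counts with doxycycline, against 0, 1 and 0 untreated. In CPM the doxycycline libraries stood at 17.9, 32.1 and 10.9 and the untreated ones at 0, 0.0392 and 0. The gene came down to a lone count in all untreated libraries together, and the ratio of 1632 had an exact counting interval of 292.5 to 64500. Its fitted log2 fold change of 10.16 was 12.05 without the untreated library of line 4, which held that count, 11.48 without both libraries of line 4 and 9.39 by limma-voom. Mmp12 shares 2.169% of its exon bases with Mmp1b on the other strand, which had 0 counts in all 6 libraries. The 9 other genes share no exon base with another annotated gene.

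Atp6v0d2 (ENSMUSG00000028238, chromosome 4, 19876841 to 19922605, minus strand), a proton pump subunit of osteoclasts and macrophages, had 53, 177 and 43 counts with doxycycline, against 0, 1 and 2 untreated. Its levels were 2.43, 5.85 and 1.65 CPM with doxycycline and 0, 0.0392 and 0.0768 CPM untreated. All untreated libraries were below the floor of 3 counts, and the group ratio was 90.2 (30.5 to 440). The fitted log2 fold change was 6.26, against 7.11 without the untreated library of line 5, 7.42 without both libraries of line 5, 5.54 without the doxycycline library of line 4 and 5.55 without both libraries of line 4. Ctsk (ENSMUSG00000028111, chromosome 3, 95499256 to 95509362, plus strand), the collagen-cleaving cathepsin K, had 7, 19 and 7 counts with doxycycline, against 3, 3 and 5 untreated. Those are few counts: at 0.405 ± 0.194 CPM with doxycycline and 0.142 ± 0.0436 CPM untreated it did not pass the filter, and the ratio was 2.97 with an interval of 1.47 to 6.52.

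Pparg (ENSMUSG00000000440, chromosome 6, 115360951 to 115490399, plus strand), the nuclear receptor that drives Cd36, Lpl and Fabp4 in macrophages and fat cells, had 1196, 1388 and 1234 counts with doxycycline, against 1927, 1694 and 1737 untreated. The levels were 54.8, 45.9 and 47.2 CPM with doxycycline and 74.2, 66.4 and 66.7 CPM untreated. Pparg was thus read at a high level in both conditions and its doxycycline libraries all lay below the untreated ones. Its log2 fold change was -0.49 (SE 0.13), with means of 49.3 ± 4.79 CPM with doxycycline and 69.1 ± 4.43 CPM untreated and a ratio of 0.706 (0.677 to 0.736).

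To set the genes against each other, mean CPM was divided by the length of a coding transcript in kilobases. With doxycycline this level was 23.2 ± 2.25 for Pparg, 16.9 ± 8.86 for Gpnmb, 13.9 ± 4.76 for Apoe, 7.53 ± 4.03 for Lpl and 5.63 ± 3.01 for Mmp12 (SD, n = 3). Below them came Cd36 at 4.91 ± 2.30, Trem2 at 3.28 ± 1.57, Fabp4 at 1.79 ± 0.759, Atp6v0d2 at 1.30 ± 0.88 and Ctsk at 0.268 ± 0.129. Neighbours in this order differed by less than the larger SD of the pair, except Apoe and Lpl, and Atp6v0d2 and Ctsk. Untreated, the order was led by Pparg at 32.5 and Apoe at 4.14 CPM per kilobase, followed by Fabp4 at 0.606, Lpl at 0.263, Cd36 at 0.137 and Ctsk at 0.0937. The longest annotated transcripts of Trem2 and Fabp4 are not coding, and per kilobase of these the doxycycline levels would be 0.747 for Trem2 and 0.380 for Fabp4, which puts both below Atp6v0d2. Per kilobase of its longest transcript Mmp12 stood at 4.54, below Cd36.

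The amounts of the 10 genes differed between lines with doxycycline. Line 4 had the highest level of 9 of the 10, with Pparg highest in line 3, and line 5 the lowest of 8. Of all genes tested 33.66% were highest in line 4, and the share lowest in line 5 was not counted. Macrophage genes outside the 10, such as Adgre1, Lyz2 and Ctss, were also highest in line 4 and lowest in line 5, while Mrc1, Fabp5 and Cd68 were not. Gpnmb was 1.76 times as high in line 4 as in line 3 and 0.602 times as high in line 5 as in line 3. For Mmp12 these ratios were 1.80 and 0.609, for Lpl 1.93 and 0.687, and for Trem2 1.61 and 0.596. This order differs from that of the Npm1 level left, which was lowest in line 3 and highest in line 5. There is no replicate within a line.

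Set against Gpnmb in the same library, several of the genes kept nearly the same proportion in lines 3, 4 and 5. Some macrophage genes outside the list did so too, as given below. Such a ratio of counts does not depend on how the library was scaled. Mmp12 gave 31.9 (95% exact interval 28.4 to 35.8), 32.7 (30.4 to 35.2) and 32.3 (28.2 to 36.98) counts per 100 Gpnmb counts in lines 3, 4 and 5 with doxycycline. Trem2 gave 5.97, 5.48 and 5.92 per 100, and Lpl 46.0, 50.4 and 52.6. The highest of the 3 ratios was 1.03 times the lowest for Mmp12, 1.09 for Trem2 and 1.14 for Lpl. The 3 counting intervals shared a value for 6 of the 9 genes, which depends on the number of counts as well as on the ratios. The 6 include Ctsk, with 7, 19 and 7 counts, and Fabp4, whose highest ratio was 2.03 times its lowest. Cd36, with more counts and a highest ratio 1.28 times its lowest, is not among them.

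The intervals shared no value for Cd36, Apoe and Pparg. Cd36 gave 31.3, 24.5 and 25.1 counts per 100 Gpnmb counts, its highest in line 3. Apoe gave 32.7, 27.3 and 40.5 per 100, its highest in line 5 and its lowest in line 4. Pparg, which was also read in the untreated lines, gave 97.9, 46.7 and 140.4 per 100, and its highest ratio was 3.01 times the lowest. Atp6v0d2 gave 4.34, 5.95 and 4.89, Ctsk 0.573, 0.639 and 0.796, and Fabp4 1.96, 2.42 and 3.98. The median of the highest over the lowest ratio was 1.37 over the 9 genes.

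Macrophage genes outside the 10 were set against Gpnmb in the same way. Per 100 Gpnmb counts, Adgre1, the F4/80 antigen, gave 15.9, 15.8 and 20.5 in lines 3, 4 and 5 with doxycycline. Ctss, a lysosomal cysteine protease of antigen-presenting cells, gave 27.1, 26.2 and 30.03, and Mpeg1, a pore-forming protein of phagocytes, gave 26.5, 26.1 and 30.03. Against these, Mrc1, the mannose receptor, gave 285.8, 232.4 and 1131, and Fabp5, an epithelial and macrophage fatty acid carrier, gave 338.7, 255.1 and 724. Both were far higher relative to Gpnmb in line 5 than in lines 3 and 4. The highest ratio was 1.15 times the lowest for Ctss and for Mpeg1, and 1.29 times for Adgre1. For Mrc1 it was 4.87 times and for Fabp5 2.84 times, against the median of 1.37 for the listed genes. The counting intervals shared a value for Ctss, Mpeg1 and Adgre1, but not for Mrc1 or Fabp5. A steady proportion to Gpnmb was thus not particular to the 10 genes.

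**Figure D2:**
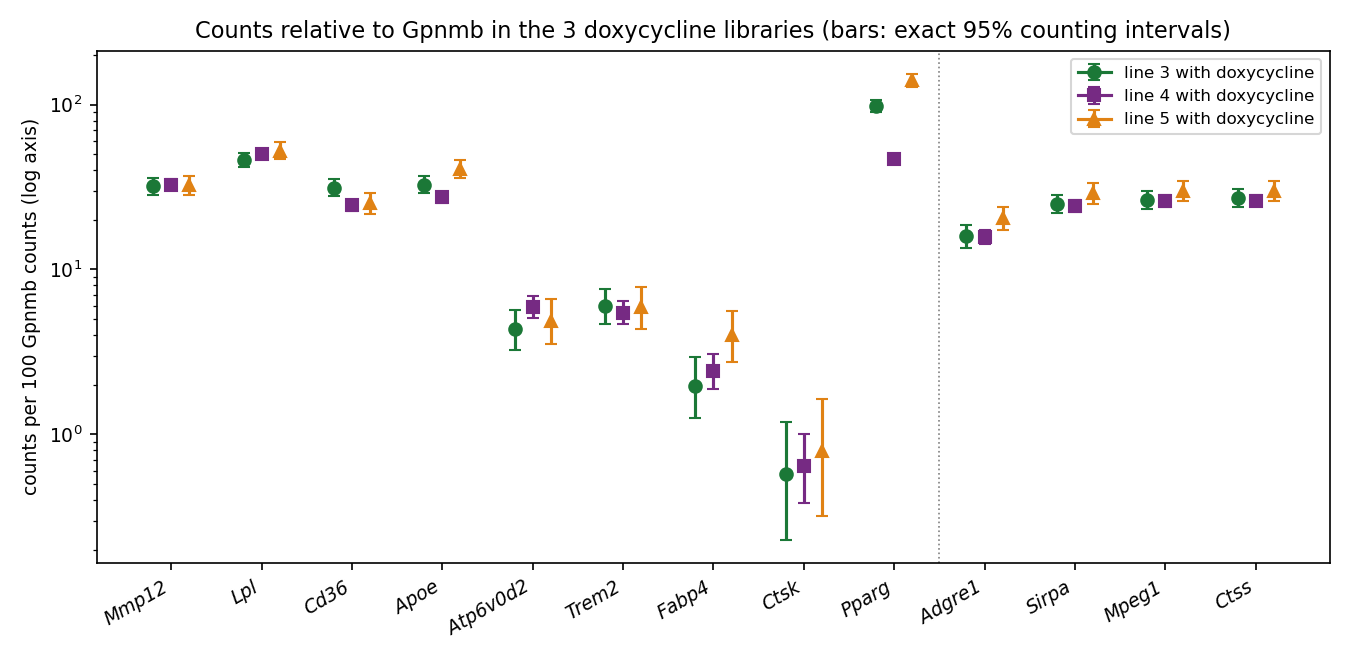
Counts per 100 Gpnmb counts (log axis) in the doxycycline libraries of lines 3, 4 and 5, for the other members and for macrophage genes outside them, with exact 95% counting intervals. The 3 points of Mmp12 lie between 31.9 and 32.7, those of Pparg between 46.7 and 140.4.

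A rule compared log2(CPM + 0.5) in all 6 libraries with that of Gpnmb, after each gene's mean over the 3 doxycycline libraries was subtracted. It took genes outside the list averaging at least 5 CPM with doxycycline. The 8 whose pattern was most like that of Gpnmb were Sirpa, Adgre1, Ctss, Mpeg1, Cd93, Stab1, Lyz2 and C1qb. Sirpa, an inhibitory receptor of myeloid cells, was the nearest, with a root mean square difference of 1.53 on the log2 scale over the 6 libraries. C1qb, a chain of complement C1q, was the eighth at 2.43. On the same measure Mmp12 stood at 1.06, Lpl at 1.78 and Cd36 at 1.90, while the 6 others lay farther from Gpnmb than all 8. These were Trem2 at 2.67, Atp6v0d2 at 2.86, Apoe at 3.60, Fabp4 at 4.06, Ctsk at 4.42 and Pparg at 5.11. Trem2, Atp6v0d2, Fabp4 and Ctsk averaged 3.57, 3.31, 1.61 and 0.405 CPM with doxycycline, under the 5 CPM asked of the 8 genes. The 0.5 CPM added shrinks the step between groups in such low genes, so their distance depends on their level as well as their pattern. Level counts among the 8 genes too. Sirpa, at 15.9 CPM with doxycycline and an edgeR log2 fold change of 6.64, ranked ahead of Adgre1, at 10.4 CPM and 8.42. The points share libraries and depth, and the measure is dominated by the step between the 2 groups.

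The label of the 10 genes was compared with markers of macrophages. Of 22 macrophage markers 20 were tested. Of these 13 (65%) were higher with doxycycline and 0 lower, against 0.963% higher and 1.32% lower over all genes tested. Their median log2 fold change was 3.37, against 0.00 over all genes tested. At an unadjusted p under 0.05 in edgeR 1 marker was lower, and by DESeq2 0 were. The list was chosen with earlier results of these libraries known. Markers near 0 untreated, such as Adgre1, could pass the filter only through the doxycycline libraries, so nothing is read from the count. Adgre1 averaged 10.4 ± 4.54 CPM with doxycycline and 0.0256 ± 0.0222 CPM untreated, from 194, 471 and 180 counts in lines 3, 4 and 5 with doxycycline and 1, 0 and 1 untreated. Csf1r, the receptor that macrophages need to survive, averaged 9.68 ± 2.67 CPM with doxycycline and 2.94 ± 0.920 CPM untreated (edgeR log2 fold change 1.72, adjusted p = 0.0139). Mrc1 made up much of the summed marker level, which ranged from 378 to 553 CPM with doxycycline and from 427 to 496 CPM untreated. Without Mrc1 the 21 other markers summed to 218.1, 324.9 and 171.2 CPM in lines 3, 4 and 5 with doxycycline, against 82.8, 79.0 and 78.0 CPM untreated. The 7 tested markers that did not pass included Mrc1, which averaged 256 ± 113 CPM with doxycycline and 383 ± 32.7 CPM untreated, Ptprc, the leukocyte antigen CD45, at 5.32 ± 1.69 CPM with doxycycline and 8.65 ± 1.82 CPM untreated, and Laptm5, a lysosomal protein of blood cells, at 5.22 ± 2.75 CPM with doxycycline and 6.57 ± 2.13 CPM untreated. Cd14, Cd68 and Fcgr3 had fitted log2 fold changes of -0.14, 0.14 and 0.03. The 13 markers that passed were higher with doxycycline, as were 9 of the 10 genes, and their part in the levels of the 10 genes was not tested.

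Osteoclasts and fat cells, which use some of the same genes, were read through their own markers. Of 8 osteoclast markers 4 were tested and none passed in either direction by edgeR, also at an unadjusted p under 0.05 and by DESeq2. The 8 summed to 63.6 to 109.5 CPM with doxycycline and 83.4 to 94.9 CPM untreated. Most of that sum was Itgb3, an integrin chain, at 62.4 ± 19.1 CPM with doxycycline and 69.3 ± 5.08 CPM untreated. Calcr, the calcitonin receptor, had 0 counts in every library. Dcstamp, too low to be tested, had 4, 7 and 4 counts in lines 3, 4 and 5 with doxycycline and 0 counts in each untreated line. Ocstamp had 0, 2 and 1 counts with doxycycline and 1, 3 and 1 untreated, and Oscar 0, 4 and 3 against 1, 0 and 1. Of 9 adipocyte markers 2 were tested and none passed by edgeR; 2 were lower at an unadjusted p under 0.05, and 1 by DESeq2. Adipocyte markers summed to 25.6 to 30.4 CPM with doxycycline and 38.5 to 41.9 CPM untreated, with Plin1, Lep and Pck1 at 0 counts in every library. Nearly all of that sum was Cidec, also on the lipid storage list, at 27.8 ± 2.82 CPM with doxycycline and 38.6 ± 1.70 CPM untreated. Of 12 alveolar macrophage markers, cells in which Pparg is high, 5 were tested and 1, Itgax, was higher, and they summed to 82.4 to 137 CPM with doxycycline and 141.5 to 155 CPM untreated. Il1rn, Plet1 and Cidec made up most of the sum of these markers. None of the markers was lower by edgeR, while 2 were lower at an unadjusted p under 0.05 and 2 by DESeq2. The defining ones were at or near 0: Car4 and Ear1 had no count, Marco and Ear2 had none with doxycycline, and Siglecf had 3, 7 and 4 counts with doxycycline and 5, 1 and 2 untreated. Of the 10 T lymphocyte markers 8 were lower with doxycycline, against 1.32% of all genes tested. Markers at or near 0 with doxycycline, such as Cd3d, could pass the filter only through the untreated libraries, so nothing is read from that count. Their sums were 4.02 to 6.59 CPM with doxycycline and 18.3 to 23.3 CPM untreated. Dendritic cell, fibroblast and epithelial markers each had 1 lower gene, which were Ccr7, Thy1 and Cldn4. Neutrophil, endothelial, melanocyte and B lymphocyte markers had no call by edgeR or DESeq2, with 1 neutrophil and 1 endothelial marker lower at an unadjusted p under 0.05. How any of these markers bear on the 10 genes was not tested.

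**Figure D3:**
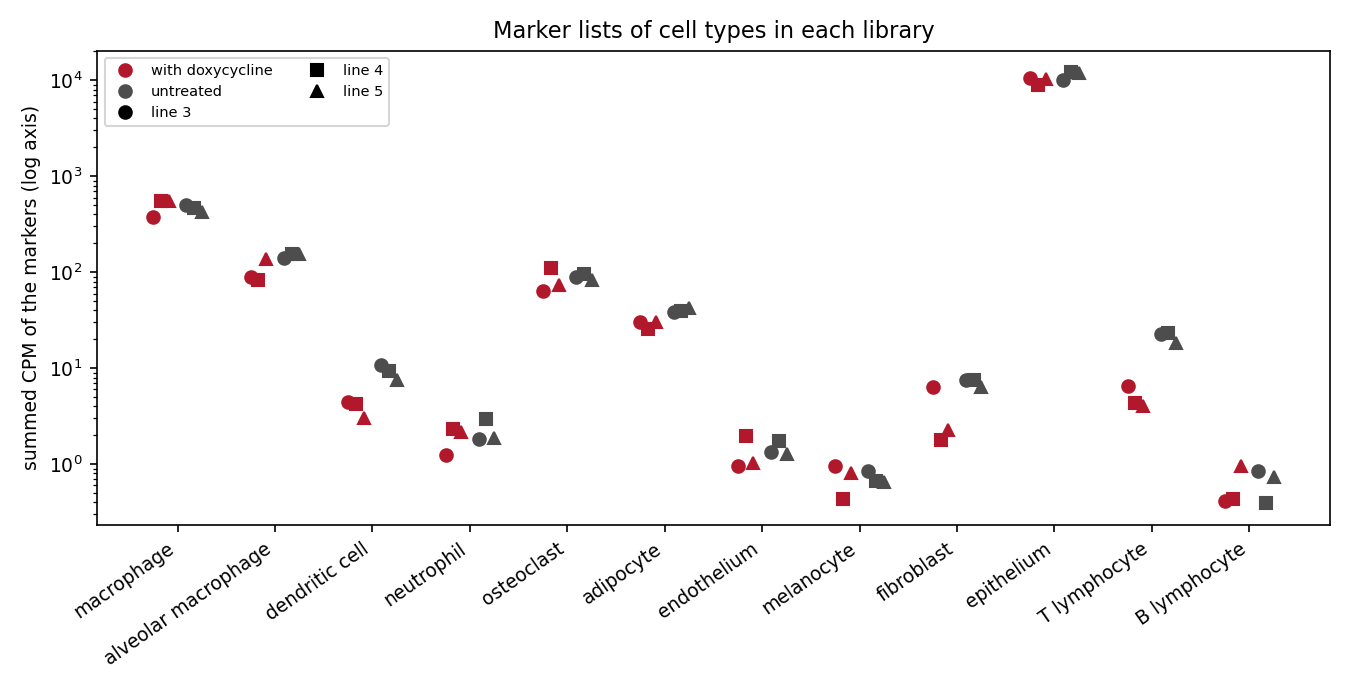
Summed CPM (log axis) of marker lists of 12 cell types in each library, doxycycline in red to the left and untreated in grey, with a symbol for each line. Osteoclast sums, mostly of Itgb3, overlap between the groups (63.6 to 109.5 against 83.4 to 94.9 CPM), and T lymphocyte sums are lower with doxycycline.

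The other genes of the same processes mostly did not pass the test. Across 9 lists with 178 further genes of lipid uptake, storage and efflux, lysosome, proton pump, matrix breakdown, Trem2 signalling, nuclear receptors and osteoclast-shared functions, 149 were tested. Of these 9 were higher with doxycycline (6.04%, against 0.963% of all genes tested) and 2 lower (1.34%, against 1.32%), and 138 did not pass. The median log2 fold change was -0.08, against 0.00 over all genes tested. Of the 9 higher genes 3 were also on the macrophage marker list, and 7 were under 1 CPM untreated. Those near 0 untreated, such as Ms4a7, could pass the filter only through the doxycycline libraries. The count moved with single libraries: without the untreated library of line 3 it was 5 higher and 1 lower, and without the doxycycline library of line 3 it was 15 higher and 25 lower. The lower count was 0 without the untreated library of line 4 and 1 without that of line 5 or without the doxycycline library of line 4. Without both libraries of line 3 it was 9 higher and 8 lower, and without those of line 4 it was 6 higher and 0 lower. Of the 11 called genes of these lists, Abca1, Apobr, Fabp5, Plin4 and Spi1 lost their calls without line 4, and Apobr, Fabp5 and Plin4 without line 5.

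Among lipid uptake genes 2 of 16 tested rose and 0 fell, with a median of -0.16. By an unadjusted p under 0.05 in edgeR 3 were lower, and by DESeq2 1 was. Msr1, the class A scavenger receptor, had 59, 125 and 35 counts with doxycycline and 0, 1 and 1 untreated, and averaged 2.72 ± 1.40 CPM with doxycycline and 0.0259 ± 0.0224 CPM untreated (edgeR log2 fold change 6.48, SE 0.72, adjusted p = 0.00147). Stab1, a scavenger receptor of macrophages and sinus endothelium, averaged 9.52 ± 3.80 CPM with doxycycline and 0.298 ± 0.160 CPM untreated (edgeR log2 fold change 4.98, SE 0.43, adjusted p = 0.000324).

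Of 17 lipid storage genes tested 1 rose and 1 fell, with a median of -0.37. At an unadjusted p under 0.05 in edgeR 1 was higher and 6 were lower, and by DESeq2 1 was higher and 3 were lower. Fabp5 averaged 228 ± 33.5 CPM with doxycycline and 128 ± 7.18 CPM untreated (edgeR log2 fold change 0.83, SE 0.14, adjusted p = 0.0137). Plin4, a lipid droplet coat protein, averaged 1.29 ± 0.630 CPM with doxycycline and 4.04 ± 0.398 CPM untreated (edgeR log2 fold change -1.67, SE 0.34, adjusted p = 0.0334). Both calls ended without any 1 of the 3 untreated libraries, and that of Plin4 also without the doxycycline library of line 4 or of line 5. Cholesterol efflux genes gave 1 higher and 1 lower of 14 tested, with a median of 0.13. Unadjusted, 4 were higher and 2 lower in edgeR, and by DESeq2 1 was higher and 1 lower. Abca1, the pump that loads cholesterol onto apolipoproteins, averaged 7.12 ± 4.05 CPM with doxycycline and 0.622 ± 0.399 CPM untreated (edgeR log2 fold change 3.52, SE 0.54, adjusted p = 0.00772). Its adjusted p was 0.096 without the untreated library of line 3. Apobr, a receptor for apolipoprotein B, averaged 7.17 ± 0.536 CPM with doxycycline and 15.2 ± 2.75 CPM untreated (edgeR log2 fold change -1.08, SE 0.19, adjusted p = 0.0139). That call ended without the untreated library of line 4 or of line 5.

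All 33 lysosomal genes listed were tested, and 2 rose and 0 fell, with a median of -0.09. Unadjusted, 3 were lower in edgeR at a p under 0.05, and by DESeq2 1 was. Ctss averaged 16.99 ± 7.96 CPM with doxycycline and 0.621 ± 0.414 CPM untreated (edgeR log2 fold change 4.77, SE 0.50, adjusted p = 0.00119). Lyz2, the macrophage lysozyme, averaged 99.0 ± 43.3 CPM with doxycycline and 8.33 ± 2.22 CPM untreated (edgeR log2 fold change 3.57, SE 0.32, adjusted p = 0.000525), with the limit that the near-identical Lyz1 can share its reads. None of the 21 proton pump genes tested passed by edgeR or DESeq2, with 1 higher and 1 lower at an unadjusted p under 0.05 and a median of 0.17. Atp6v1f, the most abundant of them, averaged 469 ± 126 CPM with doxycycline and 381 ± 27.2 CPM untreated, and Atp6v1g1 305.5 ± 41.8 CPM with doxycycline and 293 ± 21.4 CPM untreated.

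Trem2 signalling genes were few in the cells: of 13 listed 7 were tested, and 3 rose and 0 fell, with a median of 0.99. No gene of that list was lower at an unadjusted p under 0.05 in edgeR or by DESeq2. Ms4a7, a membrane protein of tissue macrophages, had 104, 198 and 78 counts in lines 3, 4 and 5 with doxycycline and 0 counts in each untreated line (edgeR adjusted p = 0.000969). Tyrobp, the adaptor through which Trem2 signals, averaged 4.82 ± 2.40 CPM with doxycycline and 0.259 ± 0.187 CPM untreated (edgeR log2 fold change 4.20, SE 0.53, adjusted p = 0.0027). Spi1, which encodes the myeloid factor PU.1, averaged 0.780 ± 0.244 CPM with doxycycline and 0.0513 ± 0.0444 CPM untreated (edgeR log2 fold change 3.82, SE 0.63, adjusted p = 0.0119). Without the untreated library of line 3 the adjusted p was 0.0511 for Tyrobp and 0.1 for Spi1, and without that of line 4 it was 0.0642 for Spi1.

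Matrix breakdown, nuclear receptor and osteoclast-shared genes gave no call by edgeR. Of 16 matrix genes tested 1 was higher and 3 lower at an unadjusted p under 0.05, and 1 was higher by DESeq2. Timp2, an inhibitor of matrix metalloproteinases, averaged 246 ± 65.9 CPM with doxycycline and 284 ± 9.39 CPM untreated, and Plaur, the urokinase receptor, 150.5 ± 16.8 CPM with doxycycline and 179 ± 20.9 CPM untreated. Of 16 PPAR and MiT factor genes 2 were higher and 3 lower unadjusted, and 1 was higher and 1 lower by DESeq2. Bhlhe40, a repressor of the circadian family, averaged 104 ± 6.62 CPM with doxycycline and 151 ± 19.95 CPM untreated (edgeR adjusted p = 0.077), and Ncor1, a nuclear receptor corepressor, 49.4 ± 6.89 CPM with doxycycline and 58.3 ± 5.95 CPM untreated. Of 9 osteoclast-shared genes 0 were higher and 1 lower unadjusted, and none passed by DESeq2. Spp1, the secreted phosphoprotein osteopontin, averaged 1950 ± 498 CPM with doxycycline and 2397 ± 539 CPM untreated, and Cd44, a receptor that binds it, 194 ± 55.1 CPM with doxycycline and 270 ± 18.6 CPM untreated.

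**Figure D4:**
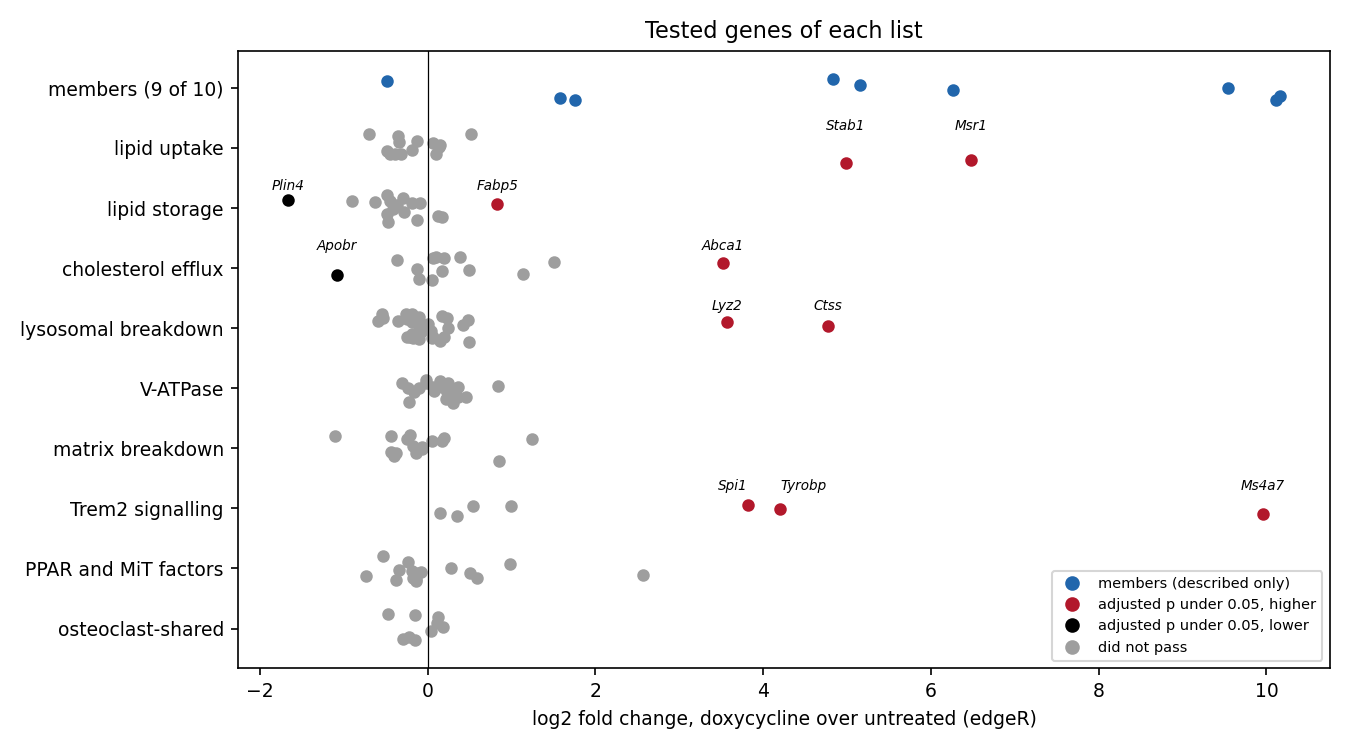
Fitted log2 fold change, doxycycline over untreated, of each tested gene in the 9 lists and of the 9 members that passed the filter. Red points were called higher and black ones lower at an edgeR adjusted p under 0.05, grey ones were not called, and blue ones are the members, whose values are a description. The fitted values of Trem2 and Ms4a7 are not bounds, since both were at 0 counts in every untreated library.

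Close relatives of the 10 genes were read in the same fit. Of 34 relatives by gene family 20 were tested, and 3 were higher (15%, against 0.963% of all genes tested) and 0 lower (against 1.32%). Their median log2 fold change was -0.04. None was lower at an unadjusted p under 0.05 in edgeR, by DESeq2 or by limma-voom. The 3 were Fabp5 and Ctss, given above, and Apoa1, the main apolipoprotein of high-density lipoprotein. Apoa1 averaged 13.5 ± 5.45 CPM with doxycycline and 5.26 ± 0.0508 CPM untreated (edgeR log2 fold change 1.37, SE 0.28, adjusted p = 0.0346). With the line as a replicate block the edgeR adjusted p of Apoa1 was 0.0529, and by limma-voom it also missed 0.05. In edgeR it missed 0.05 without any 1 of the 3 untreated libraries, and without the doxycycline library of line 4 or of line 5. The same held without both libraries of line 4 or of line 5.

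For the other genes the most abundant relative, for Trem2 the most abundant with doxycycline, did not pass the test or was too low to be tested. Pmel, the relative of Gpnmb in pigment cells, averaged 0.606 CPM in both groups. Mmp13, a collagenase and relative of Mmp12, averaged 57.0 CPM with doxycycline and 63.0 CPM untreated (edgeR adjusted p = 0.79). Atp6v0d1, the form of the Atp6v0d2 subunit used by most cells, averaged 58.5 CPM with doxycycline and 63.1 CPM untreated (edgeR adjusted p = 0.734). Lipc, the hepatic lipase and a relative of Lpl, averaged 1.18 CPM with doxycycline and 1.43 CPM untreated, and Scarb2, a lysosomal relative of Cd36, 64.7 CPM with doxycycline and 73.9 CPM untreated. Trem3, a relative of Trem2, had 7, 0 and 0 counts in lines 3, 4 and 5 with doxycycline and 2, 0 and 0 untreated, and was not tested. Treml2, another relative, had 0, 1 and 1 counts with doxycycline and 18, 11 and 1 untreated, and was not tested either. Ctsl, a relative of Ctsk, averaged 1507 CPM with doxycycline and 1922 CPM untreated (edgeR adjusted p = 0.489), and Ppard, a relative of Pparg, 18.3 CPM with doxycycline and 23.9 CPM untreated (edgeR adjusted p = 0.361).

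**Figure D5:**
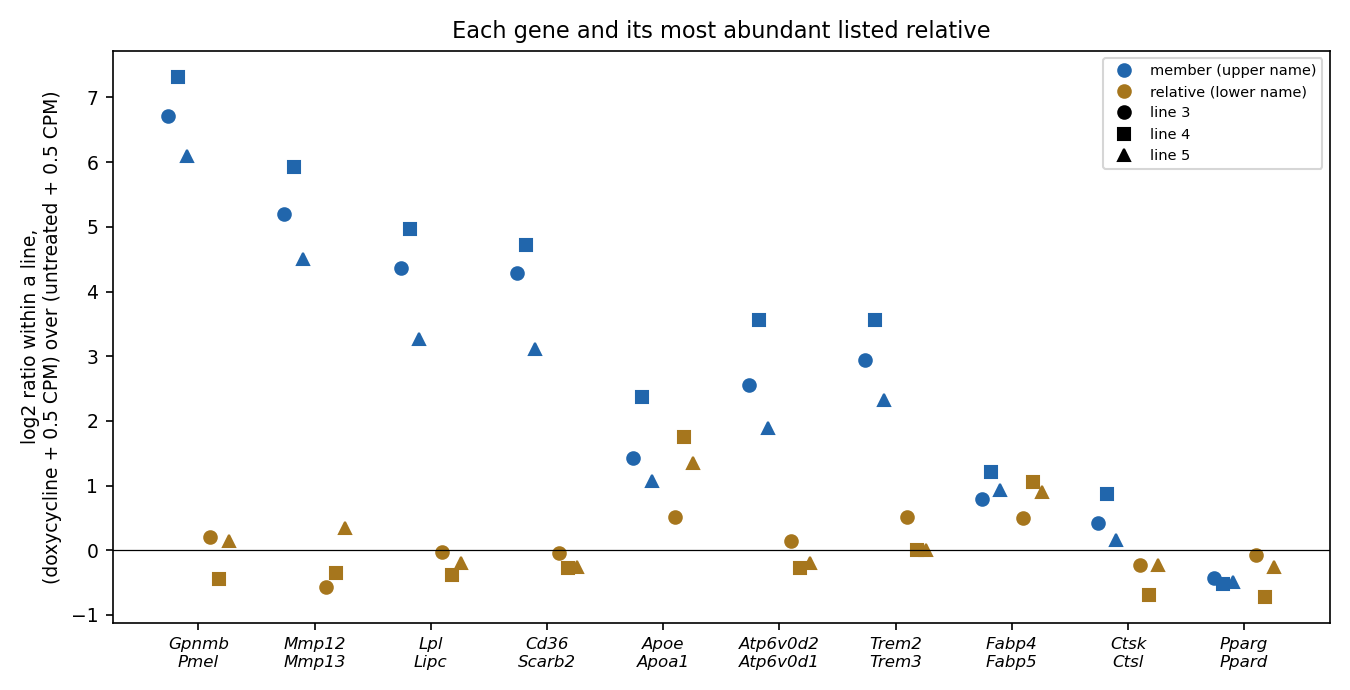
Log2 ratio of doxycycline to untreated within each line, on (CPM + 0.5), of each member (blue) and of its most abundant listed relative (brown), with a symbol for each line. For Trem2 the relative shown is Trem3, which was near 0 and had fewer untreated counts than Treml2. The points of Mmp13 and Atp6v0d1 lie near 0, those of Mmp12 and Atp6v0d2 well above it, and Fabp5 and Apoa1 are above 0 in every line.

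The genes that lie beside the 10 on the chromosome were read in the same fit. Of the 40 nearest coding genes, up to 2 on each side of each gene, 23 were tested. Of these 1 was called, as higher (4.35%, against 0.963% of all genes tested), and the median log2 fold change was 0.01. That gene was Ctss, which lies 17424 bases from Ctsk. By DESeq2 2 were called higher and 1 lower.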

How the data were processed

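Total RNA of 6 KP libraries was sequenced. The authors deposited read counts per Ensembl gene, 1 library per table; per the submitters' processing notes, the tools included STAR, HTSeq, Picard, bedtools, DESeq2 and R 3.3.0, with the mm10 build, in roles not given in the sources used here. The deposited counts are not normalized. Besides the genes, 5 rows per library name no gene; they held 43.7% to 47.7% of reads and were left out. Whether counting used strand is not given in the sources used here.

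Symbols came from GENCODE M21 and matched 48058 of 48526 identifiers. Counts were filtered by edgeR's filterByExpr, scaled by TMM and tested over 14531 genes with edgeR 4.0.16 (R 4.3.3) by the quasi-likelihood test, without the line as a term, at a Benjamini-Hochberg adjusted p of 0.05. Standard errors were taken as the log2 fold change over the root of its F statistic. The biological coefficient of variation was 18%. On simulated data for this comparison over 14531 genes, the fit recovered 11.9% of genes changed 1.5-fold, 64.2% at 2-fold and 97% at 4-fold, with 3 false calls. The simulation gave all genes and both groups the same dispersion, which the real libraries need not share, so these figures may not hold for them. Alternatives were DESeq2 1.42.0, limma-voom 3.58.1, RLE scaling, no filter, the line as a replicate block, other denominators and leaving out each library or line; the Adgre1 denominator and the coding transcript length were chosen after seeing the data. Named were, per list, up to 4 called genes of smallest p or else the 2 most abundant; called relatives and neighbours, and otherwise each member's most abundant relative; and the 8 genes most like Gpnmb. Members and lists were chosen with earlier results of these data known, so values of the members carry no test.

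Doxycycline and untreated libraries of the same number are the same stable line and so are paired by the labels. Deviations from the group means correlated at 0.005, 0.067 and 0.028 between libraries of the same line, across genes. No 2 libraries agreed within sampling noise. Intervals and the floor cover counting error only.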

Additional observations from a re-analysis of the deposited data

How the results depend on the processing

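The fitted folds of the 9 tested members kept their direction under every alternative that was run; those of Gpnmb, Mmp12 and Atp6v0d2 moved by over 1.5 times with single libraries. With no filter on low counts 1052 genes were called (430 higher, 622 lower), with 14 pathway genes higher, 9 lower and 5 neighbours, and DESeq2 called 720 (329 higher, 391 lower), with 7 pathway genes lower and 3 neighbours, against 332 (140 and 192), 9, 2 and 1. The cause was not tested. With the line as a replicate block 243 genes were called, and of the named calls Apoa1 was lost. Leaving out 1 library or line gave 62 to 1551 calls (35 to 684 higher, 27 to 867 lower). It was 89 without the untreated library of line 3, 117 without that of line 4 and 182 without that of line 5, 1551 without the doxycycline library of line 3, and 664, 62 and 197 without line 3, 4 or 5. The members called ranged from 6 to 8, pathway genes from 5 to 15 higher and 0 to 25 lower, relatives from 1 to 3 higher and neighbours from 1 to 4. The median spread of ratios to Gpnmb was 1.197 to 1.24 with a line left out, against 1.37. A highest over lowest ratio cannot rise when a line is dropped, so that fall says nothing about stability. With Adgre1 as denominator the median spread was 1.31, with the sum of the 10 genes 1.39, and with the macrophage marker sum 2.70. Mrc1 made up 3492 of the 8256 counts of the macrophage marker sum in line 3, 6911 of 16747 in line 4 and 9943 of 14416 in line 5. Depth limits Ctsk, Fabp4 and all genes at the floor.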
